A study of Mus musculus with 24 samples.

Results

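Gene expression in the ventral prostate was compared between SWR and C57BL/6 mice, both wild-type inbred strains. The comparison used 8 of the 24 arrays of the study, namely the 4 whose titles give SWR and the 4 whose titles give C57BL/6. The study profiled ventral prostate RNA of 6 inbred strains in a search for cancer modifiers, and the other 16 arrays came from AKR, 129X1, FVB and BALB/c. All mice were 8 weeks old, untreated and kept on standard mouse diet, and every strain had 4 arrays that the labels call biological replicates. The labels give no substrain for SWR or C57BL/6, no supplier and no number of animals per array, so the values describe these stocks only, and p-values measure the spread between arrays whose animals may or may not have been pooled.

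The mouse prostate has several lobes, and the ventral lobe is lined by luminal cells that secrete proteins into the seminal fluid under the control of androgens. Below them lie basal cells, which hold keratins 5 and 14, and each gland is wrapped in smooth muscle and fibroblasts. Inbred strains differ at many fixed positions in their genomes, so a probe on an array can also read a strain difference in its target sequence as a difference in level.

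Each array reports an intensity per probe set, a group of short probes for a transcript, and a gene can have several probe sets. Levels are given as log2 of the scaled intensity plus 16, and differences as SWR minus C57BL/6 on that scale, so folds of faint transcripts are compressed. Errors are the SD over 4 arrays for a level and the SE of the fit for a difference. Of 22690 probe sets, 15775 exceeded their own array's 40th percentile on at least 4 of the 24 arrays and were tested. Intensities carry no read depth, and each strain mean rests on 4 arrays. The SE and p-value of a difference use a spread estimated over all 24 arrays, those of the other strains included. The trimmed mean intensity of the 8 arrays lay between 97.4 and 101 before scaling. Over the tested probe sets, correlations averaged 0.963 among the SWR arrays, 0.964 among the C57BL/6 arrays and 0.938 between the strains, and each of the 8 arrays was most like another of its own strain. The tissue label was checked against markers. Spink1 and Msmb, both secreted by the ventral lobe, the luminal keratins Krt8 and Krt18, and the prostate transcription factors Hoxb13 and Foxa1 lay between the 97.8 and 99.97 percentile of all probe sets. The seminal vesicle genes Svs5 and Svs3a were at the 42.0 and 34.5 percentile. Pbsn, which is listed here with them among secretions of the other lobes and the seminal vesicle, was at the 99.4 percentile. Markers of those tissues were thus not all low. Upk1a, known as a bladder surface gene, was at the 98.3 percentile, and Upk2, of the same family, at the 73.2 percentile.

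SWR and C57BL/6 differed at 1258 of 15775 probe sets, 7.97% of those tested, at a limma adjusted p under 0.05. Of these, 672 were higher in SWR (4.26%) and 586 were lower (3.71%), with a median fold of 1.57. A difference of at least 2-fold was found at 250 of them (1.58%), 136 higher (0.862%) and 114 lower (0.723%), and at least 4-fold at 39. When each gene was read at its brightest probe set, 731 of 9431 genes were called (7.75%), 416 higher (4.41%) and 315 lower (3.34%), and 139 by at least 2-fold (1.47%), against a median difference over all genes of -0.0048. Among the 15 pairs of strains, which share arrays, this pair ranked 13 by number of probe sets called. The 4 SWR and 4 C57BL/6 values did not overlap at 2375 probe sets (15.1%), of which 1139 were called. Leaving out any single array of the 8 lowered the count of called probe sets from 1258 to between 937 and 1089. Without the arrays numbered 4 of both strains, an alternative chosen after the data were seen, it was 755. No other pair of arrays was left out for comparison.

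**Figure D1:**
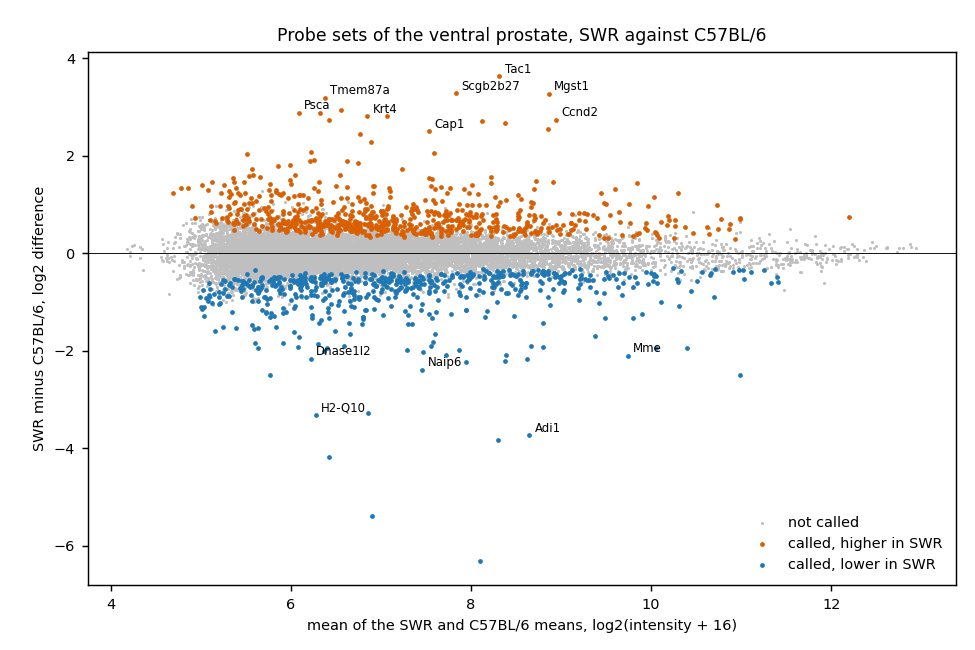
Mean level (x, log2 of intensity plus 16) against the SWR minus C57BL/6 log2 difference (y) for the 15775 tested probe sets. Orange points are the 672 called higher in SWR, blue points the 586 called lower and grey points those not called. Labels mark the 8 highest and 5 lowest of the named genes, from Tac1 at 3.63 to Adi1 at -3.73, and unlabelled points further out belong to probe sets without a single gene symbol or to second probe sets of a gene.

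The 24 genes with the widest differences were drawn from the called genes whose values did not overlap, 7.09% of all genes. Some of them are named here by known role. Whether any role was more common among them than among all genes was not tested. Higher in SWR were the secreted products Tac1, Scgb2b27 and Clca1, the detoxifying enzymes Mgst1 and Gsta4, the epithelial genes Psca, Krt4 and Wnt4, and the cell cycle gene Ccnd2. Lower in SWR were the methionine salvage enzyme Adi1, the class I histocompatibility gene H2-Q10, the inflammasome sensor gene Naip6, the membrane peptidase Mme and the antibody transporter Pigr. Tac1 encodes the precursor of substance P and Mme encodes neprilysin, a peptidase known to cleave substance P, and they differed in opposite directions.

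Tac1 was at 10.02, 9.68, 10.48 and 10.35 on the SWR arrays and at 6.73, 6.65, 6.63 and 5.99 on the C57BL/6 arrays. All 4 SWR values stood above all C57BL/6 values, and the lowest was C57BL/6 replicate 4. The difference was 3.63 ± 0.17 (SE), a 12.4-fold higher level in SWR (limma adjusted p = 4.3e-13). Mme was at 8.77, 8.57, 8.80 and 8.59 in SWR and at 10.85, 10.86, 10.69 and 10.77 in C57BL/6. Its groups did not overlap and spanned 0.24 in SWR and 0.17 in C57BL/6. It fell by 2.11 ± 0.13 in SWR, 4.31-fold, and both of its 2 tested probe sets were called in that direction (limma adjusted p = 8.4e-11 at the brighter). Of 14 tested genes of the substance P precursor and peptide processing list, 2 rose in SWR and 2 fell (28.6% called, against 7.75% of all genes). The other called pair, the prohormone-trimming enzyme Cpe (0.66) and the neurokinin receptor Tacr2 (-0.56), lost their calls when any 1 of 6 and of 7 arrays was left out, at adjusted p between 0.051 and 0.15. A second probe set of Cpe differed the other way, by -1.07, and was not called (limma adjusted p = 0.061).

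A list of ventral prostate products holds secreted proteins together with some membrane proteins of the same cells. Of its 18 tested genes, 8 rose in SWR and 1 fell, with a median difference of 0.48. The share called was 50%, against 7.75% of all genes, but the list was drawn up with earlier results known and its share is not independent evidence. The same limit holds for every gene list here. Tac1, Scgb2b27, Mgst1, Gpx3, Cd59a, Clu, Ceacam10 and Msmb rose, and Mme fell, with Mgst1, Cd59a and Mme encoding membrane proteins. Spink1, a secreted protease inhibitor that marks the lobe, was at 12.69 ± 0.27 in SWR and 12.55 ± 0.14 in C57BL/6 (n = 4 each) and was not called (limma adjusted p = 0.73, difference 0.14).

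Scgb2b27, a secretoglobin of the androgen-binding protein family, was at 8.81, 8.76, 10.29 and 10.02 in SWR and at 6.21, 6.28, 5.70 and 6.58 in C57BL/6. The SWR values formed a lower and a higher pair, and all stood above C57BL/6. The difference was 3.28 ± 0.42, a 9.72-fold higher level (limma adjusted p = 9.8e-06). Secretoglobin genes of this family are near-identical copies, so which copy the probe set reads is uncertain. Gpx3, an extracellular glutathione peroxidase, was at 10.38, 10.38, 10.48 and 11.01 in SWR and at 8.98, 8.99, 9.19 and 9.33 in C57BL/6, 2.71-fold higher in SWR. Cd59a, which blocks the membrane attack complex of complement, was at 8.52, 8.59, 9.06 and 8.68 in SWR and at 7.38, 7.43, 7.20 and 7.20 in C57BL/6. The 4 SWR values again lay above all C57BL/6 values, and both tested probe sets of Cd59a were called higher, by 1.41 and 2.93.

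Msmb, an abundant secreted microseminoprotein, was at 12.57 ± 0.15 in SWR and 11.82 ± 0.25 in C57BL/6, 1.68-fold higher. Its call was lost without SWR replicate 1 or C57BL/6 replicate 4 (limma adjusted p = 0.067 at most). Clu, the secreted chaperone clusterin, rose by 0.78 at its brightest probe set, while its other 3 tested probe sets were not called and differed by 0.22 to 0.47. Of the 6 tested genes of the dorsolateral, anterior and seminal vesicle secretions, 0 were called and 0 had an unadjusted p under 0.05 by limma.

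**Figure D2:**
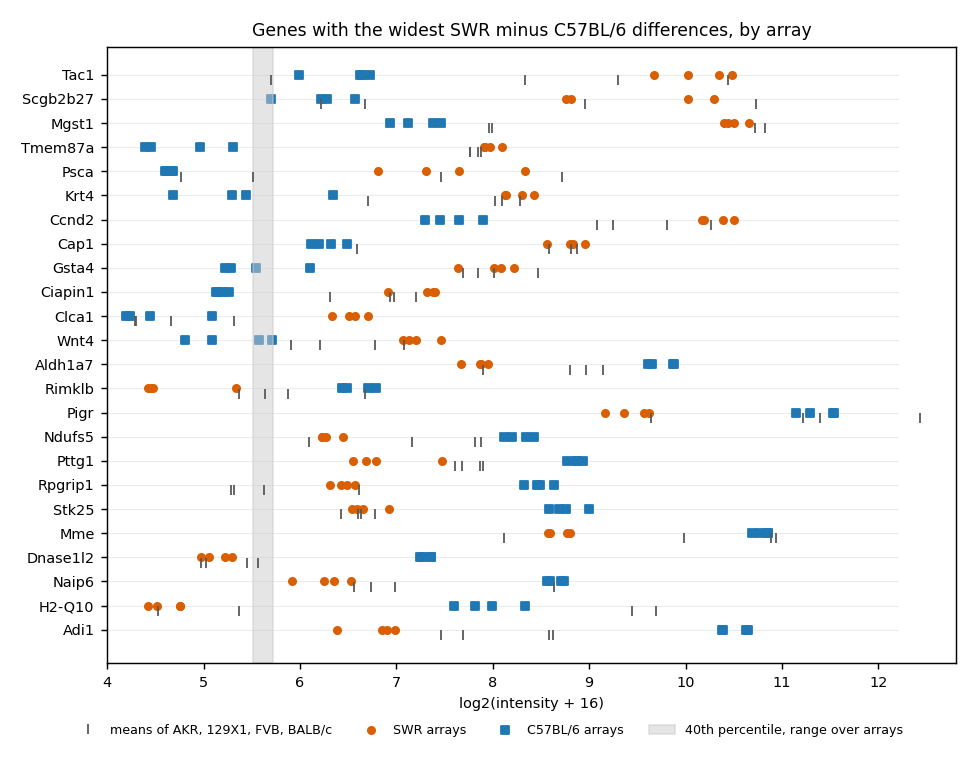
Level on each array (x, log2 of intensity plus 16) of the 12 genes with the highest and the 12 with the lowest SWR minus C57BL/6 difference. Orange circles are the 4 SWR arrays, blue squares the 4 C57BL/6 arrays, grey ticks the means of the other 4 strains and the grey band the range of the arrays' 40th percentiles. The circles and squares do not overlap for any of the 24 genes, which the rule required.

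Enzymes of detoxification differed in both directions. Of 38 tested genes of the glutathione and detoxification list, 6 rose in SWR and 3 fell, with a median of 0.11. The share called was 23.7%, against 7.75% of all genes. Mgst1, a membrane-bound glutathione transferase, was at 10.51, 10.39, 10.66 and 10.44 in SWR and at 7.46, 7.12, 6.94 and 7.37 in C57BL/6. The lowest SWR value stood 2.93 above the highest C57BL/6 value. The difference was 3.28 ± 0.18, 9.70-fold (limma adjusted p = 8.7e-12). Gsta4, a transferase known to act on lipid peroxidation products, was at 8.08, 8.22, 7.64 and 8.01 in SWR and at 5.22, 5.28, 6.10 and 5.55 in C57BL/6. On 1 of the 4 C57BL/6 arrays it was above the 40th percentile, and with the other values raised to that percentile the level in SWR was 4.76-fold higher. The lowest SWR value stood 1.54 above the highest C57BL/6 value. Cyp2f2, a cytochrome P450, also rose (0.76), as did Gclc (0.61) and Gsr (0.48), which make and recycle glutathione, although a second probe set of each differed the other way without a call, by -0.38 for Gclc and -0.34 for Gsr. Aldh1a1 fell by 0.56, Gsto1 by 0.46 and Mgst3 by 0.45. Aldh1a7, an aldehyde dehydrogenase gene outside the list and the chromosomal neighbour of Aldh1a1, fell by 1.91. The calls of Gclc, Gsr, Gsto1 and Mgst3 were lost without C57BL/6 replicate 1 or 3 and, for the last 3, without SWR replicate 1 as well, and the fall of the list was then 1 gene in place of 3.

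Mucosal defence genes also split. Of 14 tested, 5 rose in SWR and 1 fell (42.9% called, against 7.75% of all genes), with a median of 0.14. Clca1, a secreted protein of mucous cells, was at 6.57, 6.33, 6.51 and 6.71 in SWR and at 5.09, 4.24, 4.44 and 4.20 in C57BL/6. All C57BL/6 values were under the 40th percentile of their arrays, which makes the level in SWR at least 1.90-fold higher (limma adjusted p = 1.5e-06). Fcgbp, a mucin-like IgG Fc binding protein, was at 7.16 ± 0.20 in SWR and 5.26 ± 0.32 in C57BL/6, where 1 of 4 arrays was above the 40th percentile. With the other values raised to that percentile its level was 2.90-fold higher in SWR. The antimicrobial or mucosal secreted genes Wfdc2 (0.81), Tff3 (0.59) and Lcn2 (0.57) rose as well, Lcn2 with a call lost without SWR replicate 1, 3 or 4 or C57BL/6 replicate 1 or 3. Pigr, which carries IgA across epithelium, was at 9.62, 9.37, 9.57 and 9.17 in SWR and at 11.29, 11.14, 11.53 and 11.54 in C57BL/6. It fell by 1.94 ± 0.18 with no overlap, and both tested probe sets were called. Without the arrays numbered 4 of both strains the members that rose were 3 in place of 5, Fcgbp (adjusted p = 0.087) and Tff3 (adjusted p = 0.088) losing their calls.

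Psca, a surface protein, was the 1 called gene of 5 tested progenitor and Ly6 surface markers (20%, against 7.75% of all genes). Of the 5 differences 3 were below 0, with a median of -0.0017. Psca was at 7.65, 7.30, 6.81 and 8.33 in SWR and at 4.60, 4.68, 4.62 and 4.68 in C57BL/6, where it was under the 40th percentile on every array. The SWR values spread over 1.53 while those of C57BL/6 spread over 0.083, and the level in SWR was at least 3.79-fold higher (limma adjusted p = 2.5e-07). Krt4, a keratin of stratified epithelium, was at 8.30, 8.14, 8.13 and 8.43 in SWR and at 6.34, 5.44, 5.30 and 4.69 in C57BL/6, above the 40th percentile on 1 of the 4. With the others raised to that percentile it was 5.5-fold higher in SWR. Wnt4, a secreted signalling protein, was at 7.46, 7.13, 7.06 and 7.20 in SWR and at 5.71, 5.09, 5.58 and 4.80 in C57BL/6, above that percentile on 2 of the 4 and 2.99-fold higher in SWR on the same basis. The nearest values of the strains were 1.79 apart for Krt4 and 1.35 apart for Wnt4.

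Among basal epithelial genes, 5 of 11 tested rose in SWR and 0 fell (45.5% called, against 7.75% of all genes). Of the 11 differences 10 were positive, with a median of 0.44. Krt14, a basal keratin, was at 6.65, 6.33, 6.54 and 6.23 in SWR and at 5.17, 4.60, 4.51 and 4.52 in C57BL/6, where all arrays were under their 40th percentile. The level was at least 1.78-fold higher in SWR (limma adjusted p = 8.8e-07), with 2 of its 3 tested probe sets called. Krt15, another keratin of basal layers, was at 8.65, 8.83, 8.17 and 8.66 in SWR and at 7.27, 7.34, 7.20 and 7.22 in C57BL/6, 2.50-fold higher. Krt5, the partner of Krt14, was at 7.23, 7.62, 7.53 and 7.39 in SWR and at 6.63, 6.65, 6.55 and 6.53 in C57BL/6, 1.81-fold higher. The values of both did not overlap, and the C57BL/6 arrays spanned 0.15 for Krt15 and 0.12 for Krt5. Col17a1, a hemidesmosome collagen, rose by at least 1.08-fold, with all C57BL/6 arrays under their 40th percentile. Dst, which anchors keratin to hemidesmosomes, rose by 0.85. Trp63, the transcription factor that defines basal cells, was at 6.36 ± 0.27 in SWR and 6.01 ± 0.14 in C57BL/6 and was not called (limma adjusted p = 0.14). In bulk tissue fewer cells of a type and less RNA per cell cannot be told apart, and this holds for every cell type list here.

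Luminal genes showed no common direction. Of 22 tested androgen receptor and luminal regulators, 3 rose and 3 fell (27.3%), with a median of 0.06. Tmprss2, an androgen-regulated protease, rose by 0.76, Bhlha15, which drives the secretory programme, by 0.71, and Hsd17b11, a steroid dehydrogenase, by 0.46. Krt18 fell by 0.38, Cdh1, the epithelial cadherin, by 0.61, and Fkbp4, a steroid receptor co-chaperone, by 0.53, with a second probe set of Fkbp4 at 0.48 and not called. Without SWR replicate 4 or without C57BL/6 replicate 4 the list had 1 gene lower in place of 3, Cdh1 (adjusted p = 0.083 and 0.051) and Fkbp4 losing their calls. Krt18 is expressed by luminal and not by basal cells, and it was at 10.72 ± 0.08 in SWR and 11.10 ± 0.09 in C57BL/6 (SD, n = 4 each). The highest SWR value was below the lowest C57BL/6 value by 0.19.

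**Figure D3:**
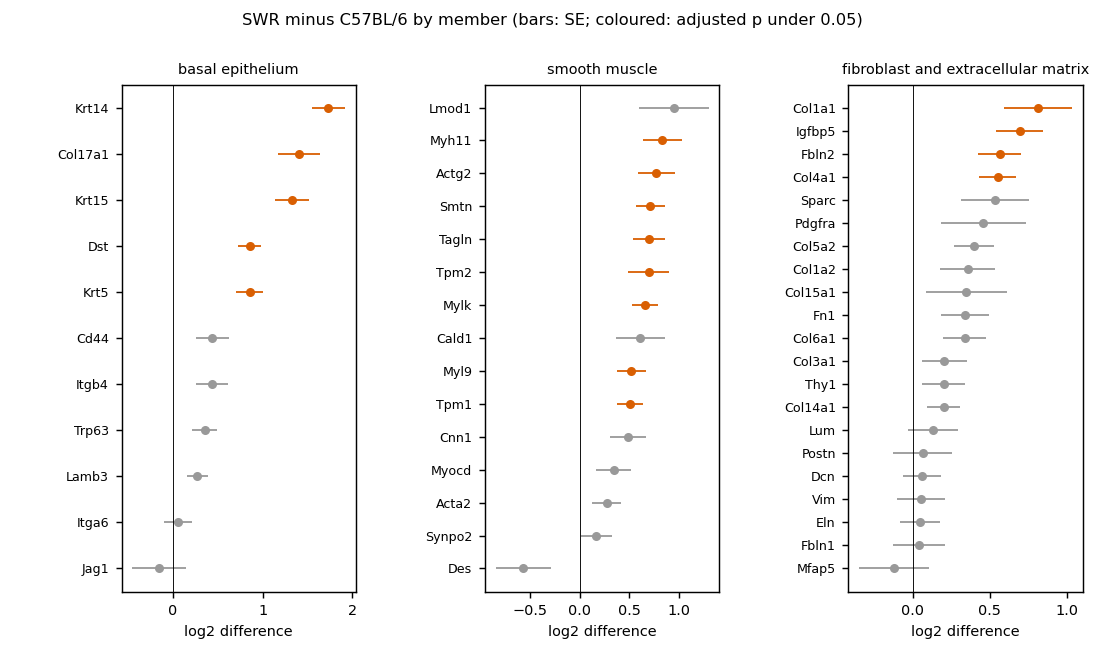
SWR minus C57BL/6 log2 difference (x) of every tested gene of the basal epithelium, smooth muscle, and fibroblast and extracellular matrix lists (y), with bars of 1 SE. Orange marks the 5, 8 and 4 genes called higher in SWR, and grey those not called. Only Jag1, Des and Mfap5 have differences below 0.

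Among smooth muscle genes, 8 of 15 tested rose in SWR and 0 fell (53.3% called, against 7.75% of all genes). Of the 15 differences 14 were positive, with a median of 0.61. Myh11, the smooth muscle myosin heavy chain, was at 9.53, 9.49, 9.09 and 10.35 in SWR and at 9.12, 8.70, 8.30 and 9.02 in C57BL/6. SWR replicate 4 was the highest and SWR replicate 3 lay below 1 C57BL/6 array, so the groups overlapped. The difference was 0.83 ± 0.19 (limma adjusted p = 0.0074). Smtn, which marks contractile smooth muscle, was at 7.08, 6.90, 6.63 and 7.45 in SWR and at 6.51, 6.17, 6.16 and 6.38 in C57BL/6. Its groups did not overlap, and it was 1.64-fold higher. Actg2 (0.77), Tagln (0.69), Tpm2 (0.69), Mylk (0.66), Myl9 (0.52) and Tpm1 (0.51), which encode contractile filaments and the myosin light chain with its kinase, also rose. The calls of Tpm2 and Myl9 were each lost without any 1 of 5 arrays (limma adjusted p up to 0.17 and 0.13). That of Tpm1 was lost without SWR replicate 4 or C57BL/6 replicate 3. A second probe set of Tpm2 differed by -0.06 and was not called. Acta2, smooth muscle actin, differed by 0.27 and was not called (limma adjusted p = 0.31).

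The score of a list is the mean of its genes' levels, taken relative to that gene's mean over the 24 arrays. The smooth muscle score was 0.17, 0.17, 0.00 and 0.73 on the SWR arrays and -0.12, -0.40, -0.51 and 0.07 on the C57BL/6 arrays. Skeletal muscle genes ranked the C57BL/6 arrays in the same order, but in SWR shared only the high replicate 4. Their score was -0.40, -0.34, -0.14 and 0.91 in SWR and -0.12, -0.22, -0.59 and 0.60 in C57BL/6, with replicate 4 highest in both strains. Of 16 tested skeletal muscle genes, 1 rose, Acta1 by 1.09, and 0 fell (6.25% called, against 7.75% of all genes), with a median of -0.02. The part of skeletal muscle in the smooth muscle result was not tested. Without the arrays numbered 4 of both strains 7 smooth muscle genes were called, Myl9 and Tpm1 having lost their calls (limma adjusted p = 0.086 each) and Lmod1, a gene of smooth muscle actin filaments, having gained one (1.26, adjusted p = 0.047). The count was 5 without SWR replicate 4, when Des, the muscle intermediate filament gene, was called lower by limma (-0.91, adjusted p = 0.020), 5 without C57BL/6 replicate 3, and 4 in a fit of the 8 arrays alone. In the fit of 8 arrays Tpm2 and Myl9 lost their calls, as did Myh11 and Actg2 (limma adjusted p = 0.081 and 0.051).

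Of 21 tested fibroblast and extracellular matrix genes, 4 rose (19.0%) and 0 fell, with a median of 0.34 and 20 positive differences. Igfbp5, a secreted binder of insulin-like growth factors, rose by 0.69 and Col4a1, a basement membrane collagen, by 0.55. Fbln2 rose by 0.56 and Col1a1 by 0.81, and without the arrays numbered 4 of both strains neither was called (limma adjusted p = 0.095 and 0.15). A second probe set of Col1a1 differed by -0.31, and with the probe sets of each gene averaged 2 genes of the list rose in place of 4. The call of Col1a1 was also lost without SWR replicate 1, 2 or 4 or C57BL/6 replicate 1, 2 or 4. The fibroblast score was 0.14, 0.12, -0.05 and 0.27 in SWR and -0.14, -0.31, -0.19 and -0.08 in C57BL/6, with SWR replicate 4 again highest.

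**Figure D4:**
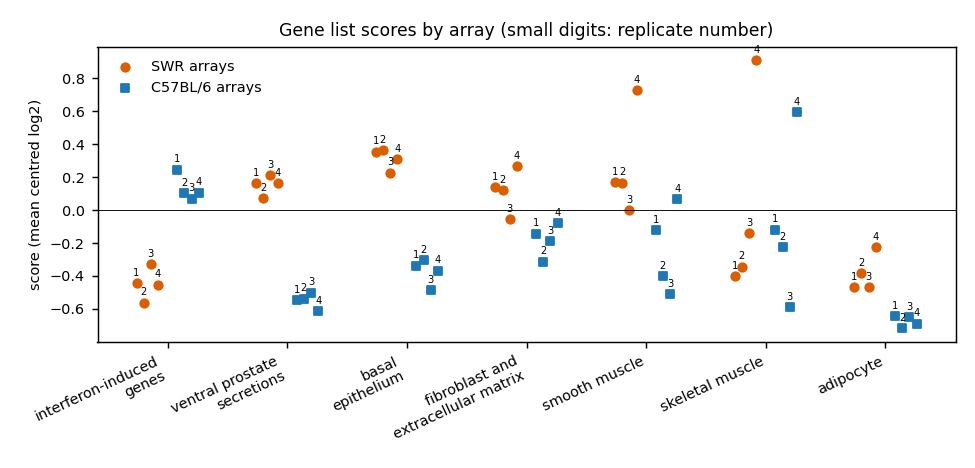
Score of 7 gene lists (x) on each SWR (orange circles) and C57BL/6 (blue squares) array, as the mean of log2 levels centred over all 24 arrays (y), with the replicate number above each point. Scores of the interferon, secretion, basal, fibroblast and adipocyte lists do not overlap between the strains, while those of smooth and skeletal muscle do and are highest at replicate 4. Scores of many lists not drawn here do not overlap either.

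Other cell type lists held few called genes. Of 10 endothelial, 15 macrophage and dendritic cell, 10 lymphocyte, 4 nerve and 11 adipocyte genes tested, 0 were called, and 4, 3, 3, 1 and 2 of them had an unadjusted p under 0.05 by limma. With any single array left out, at most 1 gene of each of these lists was called. The macrophage score was between -0.13 and 0.00 in SWR and between -0.03 and 0.06 in C57BL/6. Scores that did not overlap between the strains were common among the gene lists, and those of lymphocytes, adipocytes and urothelium were among them. The urothelium score was 0.09 to 0.26 in SWR and -0.12 to 0.04 in C57BL/6. The lymphocyte score was -0.33 to -0.09 in SWR and -0.07 to 0.21 in C57BL/6, lower in SWR as the interferon score was. The adipocyte score was -0.47 to -0.22 in SWR and -0.72 to -0.64 in C57BL/6, higher in SWR as the fibroblast score was, with 9 of 11 differences above 0. The part of lymphocytes or adipocytes in those results was not tested. Alas2, the heme synthesis enzyme of red cells, was the 1 called gene of 3 tested in its list (33.3%, against 7.75% of all genes). It rose by 1.21, from 5.26 ± 0.47 in C57BL/6 to 6.47 ± 0.21 in SWR (SD, n = 4 each). The C57BL/6 mean was below the 40th percentile of each C57BL/6 array. Krt7, a keratin of urothelium and other simple epithelia, was the 1 called of 5 urothelial genes (20%) and rose by 0.87.

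The interferon-induced genes that differed were mostly lower in SWR. Interferons act through cell surface receptors, and transcription factors that bind a paired GAAA element then switch on antiviral genes. Of 25 tested genes of this list, 10 fell in SWR and 1 rose (44.0% called, against 7.75% of all genes). Of the 25 differences 20 were negative, and the median was -0.54. The promoters of 3 of the genes that fell are shown because the paired element could be read in them. They are the 250 bases before the transcription start from RefSeq on GRCm38.p6, for Ifit1 at chr19:34640639-34640888 on the plus strand, Ifit3 at chr19:34583279-34583528 on the plus strand and Rsad2 at chr12:26456453-26456702 on the minus strand. Capitals mark matches, on either strand, to GAAA followed by any 2 bases and GAAA again.
Ifit1: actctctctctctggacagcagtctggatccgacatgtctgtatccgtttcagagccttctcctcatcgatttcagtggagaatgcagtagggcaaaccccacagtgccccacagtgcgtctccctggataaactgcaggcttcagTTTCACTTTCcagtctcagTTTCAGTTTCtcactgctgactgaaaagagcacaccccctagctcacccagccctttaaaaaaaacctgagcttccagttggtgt
Ifit3: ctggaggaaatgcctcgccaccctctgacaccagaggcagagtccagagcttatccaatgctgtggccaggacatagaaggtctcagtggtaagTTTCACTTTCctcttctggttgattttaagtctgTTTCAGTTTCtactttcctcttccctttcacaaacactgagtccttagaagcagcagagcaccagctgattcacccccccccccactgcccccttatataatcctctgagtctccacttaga
Rsad2: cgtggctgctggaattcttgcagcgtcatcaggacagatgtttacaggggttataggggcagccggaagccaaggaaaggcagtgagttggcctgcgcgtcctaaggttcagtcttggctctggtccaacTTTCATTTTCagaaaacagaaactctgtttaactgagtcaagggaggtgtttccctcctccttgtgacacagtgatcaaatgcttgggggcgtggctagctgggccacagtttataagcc

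Ifit1 and Ifit3 each held 2 matches, at 104 and 85 bases and at 156 and 122 bases before the start, and Rsad2 held 1, at 120 bases. In windows of 300 bases, 250 before and 50 after the start, the element was found in 5 of the 8 genes that fell and had a window (62.5%), in 8 of 11 other tested genes of the list (72.7%), and in 289 of 7625 tested genes (3.79%). The share was no higher in the genes that fell than in the rest of the list. Such a match describes the letters of the reference sequence, not a bound site.

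Oasl2, an oligoadenylate synthetase-like gene, was at 5.13, 4.62, 4.84 and 4.67 in SWR, under the 40th percentile on every array, and at 6.52, 6.37, 6.36 and 6.19 in C57BL/6. Its level was at least 1.72-fold lower in SWR (limma adjusted p = 7.5e-05). Rsad2, which encodes the antiviral enzyme viperin, was at 6.08, 5.74, 6.45 and 6.30 in SWR and at 7.58, 7.40, 7.33 and 7.48 in C57BL/6. It fell by 1.31 ± 0.19, and all 3 of its tested probe sets were called. Neither gene had overlapping values. Usp18, which removes ISG15 from proteins and dampens interferon signalling, was at 4.89, 5.09, 5.36 and 5.14 in SWR and at 6.37, 6.17, 6.58 and 6.14 in C57BL/6, at least 1.67-fold lower.

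Ifit1, which binds viral RNA, was at 5.93, 5.78, 6.21 and 6.02 in SWR and at 7.29, 6.97, 7.02 and 6.95 in C57BL/6. The highest SWR value was 0.74 below the lowest C57BL/6 value. Ifih1, the RNA sensor MDA5, fell by 0.91, Trim30a, an interferon-induced ubiquitin ligase, by 0.90 and Rtp4, which is induced by interferon, by 1.12. The regulators Irf7 and Irf9 fell by 0.74 and 0.71, and Ifit3 by 0.73. Gbp2, a guanylate-binding protein, rose by 0.46, but its call was lost under 12 of 18 alternatives. Irf7, Irf9, Ifit3 and Rtp4 lost their calls without C57BL/6 replicate 1, so that 6 genes fell, and each lost it also without at least 1 SWR array. The 10 counted with all arrays were 6 to 8 with any single array left out. Mx1, an interferon-induced gene carrying a known deletion in many inbred strains, was at 6.00 ± 0.25 in SWR and 5.91 ± 0.21 in C57BL/6 and was not called.

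**Figure D5:**
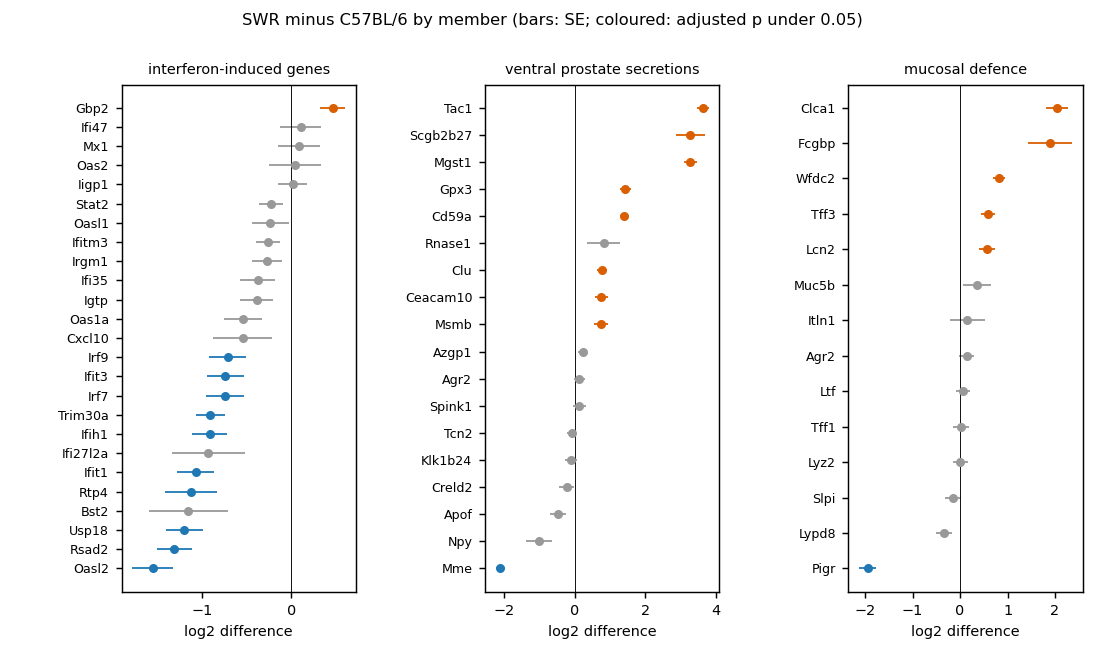
SWR minus C57BL/6 log2 difference (x) of every tested gene of the interferon-induced, ventral prostate secretion and mucosal defence lists (y), with bars of 1 SE. Orange marks genes called higher in SWR (1, 8 and 5) and blue those called lower (10, 1 and 1). Secretion genes extend from Mme at -2.11 to Tac1 at 3.63.

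Histocompatibility genes differed by gene and by probe set. SWR and C57BL/6 carry different H2 haplotypes, and class I genes are near-identical copies, so levels at these probe sets are uncertain. H2-Q10, which encodes a secreted class I molecule known from liver, was at 4.52, 4.76, 4.43 and 4.75 in SWR and at 7.82, 7.60, 8.33 and 7.99 in C57BL/6. All SWR values were under the 40th percentile, and the level was at least 5.13-fold lower in SWR (limma adjusted p = 6.9e-10). Of 15 tested class I and antigen processing genes, 1 rose and 2 fell (20%). The gene that rose was H2-D1, and besides H2-Q10 the peptide transporter gene Tap1 fell by 0.52. H2-D1 rose by 0.51, with 2 of its 8 tested probe sets called and another, not called, at -0.43. Its call was lost without SWR replicate 1, 2 or 3 or C57BL/6 replicate 1 or 4, and that of Tap1 without SWR replicate 2 or 4 or C57BL/6 replicate 1 or 3. Another class I gene, H2-K1, had probe sets called in both directions. H2-Eb1, a class II beta chain, was at 7.11, 6.49, 7.06 and 7.08 in SWR and at 7.79, 8.10, 8.04 and 7.94 in C57BL/6, 2.05-fold lower without overlap. H2-Aa, a class II alpha chain, was called in both directions, with -0.58 at its brighter probe set and 1.28 at the other, and the first call was lost without any 1 of 7 arrays. These 2 were the called genes of 10 tested class II genes (20%, against 7.75% of all genes).

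Genes of the cell cycle were led by Ccnd2. Ccnd2, which encodes cyclin D2, was at 10.39, 10.50, 10.17 and 10.19 in SWR and at 7.64, 7.89, 7.30 and 7.46 in C57BL/6. The nearest values of the strains were 2.27 apart, and all 7 tested probe sets were called higher. The difference at the brightest was 2.74 ± 0.16, 6.68-fold (limma adjusted p = 2.9e-11). Cdkn1a, the cyclin-dependent kinase inhibitor p21, was at 7.32, 7.23, 7.60 and 7.25 in SWR and at 6.27, 6.32, 6.33 and 6.37 in C57BL/6, 2.04-fold higher. Gas6, a growth arrest-specific ligand, rose by 1.0. Btg2, an antiproliferative gene, was at 6.53, 6.39, 6.84 and 6.63 in SWR and at 8.46, 8.55, 8.63 and 8.38 in C57BL/6. It fell by 1.91, but its other tested probe set differed by -0.13 and was not called. Ccnd1, which encodes cyclin D1, fell by 0.69, with its call lost without SWR replicate 2 or 3 (limma adjusted p = 0.051 and 0.053). In all, 3 of 21 tested genes of this list rose and 2 fell (23.8%). Of 20 tested proliferation genes 2 rose, Cdk1 and Mcm5, and 0 fell (10%, against 7.75% of all genes). Both calls were lost without C57BL/6 replicate 1, and each also without either of 2 SWR arrays. That of Cdk1 was also lost with a pseudocount of 4 and that of Mcm5 with 64. Mcm5 was under the 40th percentile on all C57BL/6 arrays.

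Among genes of methionine and polyamine metabolism, Adi1 had the widest difference. Adi1, an enzyme of the methionine salvage pathway, was at 6.98, 6.39, 6.85 and 6.90 in SWR and at 10.39, 10.37, 10.63 and 10.65 in C57BL/6. The nearest values of the strains were 3.39 apart. It fell by 3.73 ± 0.16 in SWR, 13.3-fold, and all 3 tested probe sets were called (limma adjusted p = 9.8e-14). Srm, which encodes spermidine synthase, rose by 0.65, and of the 16 tested genes of this list 1 rose and 3 fell (25%). The other pair that fell, Odc1 (-0.36), which starts polyamine synthesis, and the arginase gene Arg2 (-0.38), lost their calls without SWR replicate 4 or C57BL/6 replicate 1 or 3, which left 1 gene lower. Sc5d, a late enzyme of cholesterol synthesis, was at 6.61, 6.83, 6.31 and 6.55 in SWR and at 8.14, 8.03, 7.87 and 8.07 in C57BL/6, 2.74-fold lower. It was the 1 called gene of 23 tested genes of cholesterol and fatty acid synthesis (4.35%, against 7.75% of all genes), at 1 of its 2 probe sets.

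Of 12 tested apolipoproteins and lipid carriers, 3 rose and 0 fell (25%). Apoe, which carries cholesterol between cells, was at 9.65, 9.60, 9.35 and 9.29 in SWR and at 8.07, 8.02, 8.17 and 7.66 in C57BL/6, 2.81-fold higher. Its chromosomal neighbour Apoc1 was at 7.12 ± 0.23 in SWR and 5.99 ± 0.40 in C57BL/6, 2.20-fold higher. Nupr1, a stress-induced nuclear protein, was at 8.18, 8.27, 7.69 and 8.17 in SWR and at 9.59, 9.43, 9.29 and 9.76 in C57BL/6. It fell by 1.44 without overlap, while the serine synthesis genes Psat1 and Psph rose by 0.66 and 0.55. Psat1 was under the 40th percentile on all C57BL/6 arrays, so its 0.66 rests on values under that percentile and is not a bound. Of 20 tested genes of amino acid stress and serine synthesis, 2 rose and 1 fell (15%, against 7.75% of all genes). With the filter at the 60th percentile, 14 of them were tested and 0 rose.

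Of 55 tested genes of mitochondrial respiration, 1 rose and 6 fell (12.7%), with a median of -0.11. The complex I subunits Ndufb5 and Ndufa3 fell by 0.54 and 0.53 and the cytochrome oxidase subunit Cox7a2 by 0.45. The number that fell was 2 without SWR replicate 3 or 4, 3 without C57BL/6 replicate 1, 3 or 4, Cox7a2 losing its call in each case, and 0 without the arrays numbered 4 of both strains. Ndufs5, a complex I subunit gene named by its size of difference, was at 6.27, 6.23, 6.45 and 6.23 in SWR and at 8.34, 8.12, 8.43 and 8.20 in C57BL/6, 3.95-fold lower without overlap. Nnt, the mitochondrial transhydrogenase that is partly deleted in the C57BL/6J substrain, was at 8.41, 8.63, 8.81 and 8.80 in SWR and at 7.69, 7.62, 7.59 and 7.75 in C57BL/6. The C57BL/6 level was 2.0-fold lower at the brighter of 2 probe sets, and the other was not called.

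Of 28 tested genes with reported strain differences, a list drawn up with earlier results of these data known, 8 rose and 6 fell (50%). Alad, a heme synthesis enzyme whose copy number differs among strains, was at 7.80, 7.79, 7.57 and 7.56 in SWR and at 6.54, 6.52, 6.54 and 6.51 in C57BL/6, 2.22-fold higher. Its C57BL/6 values spanned 0.036. Wdfy1, an endosomal protein, was at least 2.22-fold higher in SWR at its brightest probe set. Another of its probe sets differed by -0.26 and was not called (limma adjusted p = 0.71). Cap1, a regulator of actin, was 5.68-fold higher in SWR with both tested probe sets called. Naip5, a sensor of bacterial flagellin, fell by 1.27 and its neighbouring copy Naip6 fell by 2.39. Naip6 was at 6.35, 5.92, 6.53 and 6.24 in SWR and at 8.59, 8.73, 8.71 and 8.56 in C57BL/6, and which of these near-identical copies the probe sets detect is uncertain. Pttg1, the anaphase inhibitor securin, fell by 1.99 with 2 of 3 probe sets called, and Rpgrip1 by 2.03 with 1 of 2 called. Glo1, which is duplicated in some strains, was at 8.17 ± 0.20 in SWR and 8.19 ± 0.27 in C57BL/6. Erdr1 rose by 0.80. The 14 genes not called, Glo1 and Mx1 among them, differed by -0.74 (Kcnk3, a potassium channel) to 0.65 (Malat1, a nuclear non-coding RNA), both with a limma adjusted p of 0.097, and H2-Ea, Pam, Gdpd3, Gbp2b, Alpl, Ide, Gstm1, Ahr, Rps9 and Apoa2 lay between them.

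The remaining genes named by the size of their difference have less specific roles in the prostate. Tmem87a, a Golgi membrane protein, was at 7.91, 8.09, 7.97 and 7.92 in SWR and at 4.39, 4.45, 5.31 and 4.96 in C57BL/6, under the 40th percentile there and at least 5.18-fold higher in SWR. Ciapin1, needed for cytosolic iron-sulphur proteins, was at least 3.14-fold higher in SWR. Stk25, a serine/threonine kinase, fell by 2.08, with values of 6.54 to 6.92 in SWR and 8.58 to 9.0 in C57BL/6. Dnase1l2, a deoxyribonuclease gene, was at least 3.32-fold lower at its brightest probe set and at least 7.64-fold lower at the other, and Rimklb, a glutamate ligase gene, was at least 2.04-fold lower in SWR, where both were under the 40th percentile.

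The widest differences of all lay at probe sets that could not be assigned to 1 gene here. A probe set without a single symbol was at 4.94 in SWR and 11.25 in C57BL/6, a difference of -6.31, and another was at 4.21 and 9.59. A second probe set of Rps9, a ribosomal protein gene, differed by -3.28, while its brightest differed by -0.10 and was not called. Of 3315 genes with at least 2 tested probe sets, 532 had at least 1 called. All probe sets were called in 1 direction for 61 of these genes, some for 461, and 10 genes were called in both directions.

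For each probe set, the midpoint of SWR and C57BL/6 was then compared with the mean of the other 4 strains, a contrast that does not contain the difference between the pair but comes from the same fit. Both tests divide by the same residual variance of a probe set, so they are not independent and the shares below are a description. Of all tested probe sets 15.7% passed this test. Of the 1258 called between SWR and C57BL/6, 453 did (36.0%). At 286 of these the mean of the other 4 strains lay closer to SWR, and at 167 it lay closer to C57BL/6. Of the 24 genes with the widest differences it lay closer to SWR for 12, among them Mgst1, Ccnd2, Tmem87a, Gsta4, Adi1, Stk25 and Dnase1l2, and closer to C57BL/6 for 4, namely Clca1, H2-Q10, Mme and Pigr. Adi1 had means of 7.46 to 8.62 in the other strains, between the 6.78 of SWR and the 10.51 of C57BL/6. Clca1 had means of 4.28 to 5.31 there, against 6.53 in SWR and 4.49 in C57BL/6. Tac1 met neither condition, with means from 5.70 in AKR to 10.44 in BALB/c.

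Called genes were also placed in their RefSeq order along the chromosomes. Of 730 called genes, 21.5% had a called gene as a direct neighbour among the tested genes, against 14.3% of the genes not called. Among 81 neighbouring pairs with both called, 53 differed in the same direction and 28 in opposite directions. In 6 pairs both genes differed by at least 2-fold, and in all 6 the direction was the same. These were Fmod and Btg2, Naip5 and Naip6, Cgref1 and Abhd1, Mgst1 and Pik3c2g, Apoc1 and Apoe, and Scgb2b27 and Scgb1b27. Copies within the Naip and secretoglobin families may share probe sequence.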

How the data were processed

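Every array has 1 deposited intensity for each probe set. Per the submitters' processing notes the authors used MAS5, without a stated version or settings. All deposited intensity columns had a mean of 143. From the deposited values, log2 of intensity plus 16 was computed after scaling every array to the same 2% trimmed mean (98.7). The 64 control probe sets were left out, as were 6851 not above their array's 40th percentile on at least 4 of 24 arrays. A single gene symbol was given for 20393 probe sets, several for 691 and no symbol for 1606, and 20364 matched a RefSeq gene of GRCm38.p6.

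The strains were compared with limma 3.58.1 (R 4.3.3), fitted to all 24 arrays with a mean for each strain (18 residual and 4.85 prior degrees of freedom), two-sided, with Benjamini-Hochberg adjustment over all 15775 probe sets and a threshold of 0.05. Genes were read at their brightest tested probe set. Where all 4 arrays of a strain were under the 40th percentile, the fold is a bound against that percentile. Genes named are the 12 highest and 12 lowest called genes with non-overlapping values and the 3 widest called members of each of 38 lists (7 had none), and all tested genes with reported strain differences; other list members were named after their values were seen. Members and lists were chosen with earlier results of these data known. The workflow was tested on simulated data. Alternatives covered scaling, pseudocount, filter, arrays in the fit, replicate block, moderation, averaged probe sets and single arrays left out.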

Additional observations from a re-analysis of the deposited data

Results flagged for a closer look

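In 13 of 188 groups of 4 values examined, 1 array stood apart from the other 3 by more than Dixon's 95% limit, and chance flags about 1 in 20 groups. Tac1 was at 5.99 in C57BL/6 replicate 4 against 6.63 to 6.73 in the others, and Atp12a, a proton pump gene, at 5.40 there against 5.77 to 5.81. In C57BL/6 replicate 1, Krt14 was at 5.17 against 4.51 to 4.60, Psph at 5.86 against 5.64 to 5.68 and Mcm5 at 4.17 against 5.03 to 5.16. In SWR replicate 4, Gpx3 was at 11.01 against 10.38 to 10.48, Actg2 at 9.07 against 8.24 to 8.37, Cdh1 at 8.46 against 8.80 to 8.83 and Alas2 at 6.15 against 6.57 to 6.59. In SWR replicate 3, Ciapin1 was at 6.91 against 7.32 to 7.40, Nupr1 at 7.69 against 8.17 to 8.27 and Rimklb at 5.34 against 4.42 to 4.47. In SWR replicate 2, H2-Eb1 was at 6.49 against 7.06 to 7.11.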

How the results depend on the processing

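With single arrays left out, 937 to 1089 probe sets were called (487 to 572 higher, 427 to 517 lower, 238 to 258 at least 2-fold), and 320 to 360 passed the midpoint test. Without the arrays numbered 4 of both strains, chosen after the data were seen, 755 were called, 417 higher and 338 lower, and 284 passed the midpoint test. With a pseudocount of 64, 97 were called with at least 2-fold. The replicate numbers did not pair the arrays: same-number correlations of deviations between the strains were -0.031 to 0.11, and 1 of 4 SWR arrays correlated best with its own number. With the replicate block 1159 were called, 620 higher and 539 lower. Higher calls made up 52.0% to 55.6% of calls in the settings run. Of 87 named called genes, 60 kept their call under all 18 alternatives run, 27 lost it under at least 1, and 0 reversed. Of 126 called list members, 72 kept it and 42 lost it with at least 1 array left out; why was not tested. Probe sets near the 40th percentile give only bounds.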

Other observations

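The share of genes called is given here for further gene groups, against 7.75% of all genes. Of 36 tested genes of endoplasmic reticulum folding and secretion, 3 rose in SWR and 1 fell (11.1%), with a median of -0.08. Ero1a, which oxidises disulphides for protein folding, was at 7.28, 7.48, 7.80 and 7.75 in SWR and at 6.71, 6.89, 7.02 and 7.07 in C57BL/6, 1.57-fold higher without overlap. Pdia4 (0.64) and Sec61a1 (0.42) rose too, but lost their calls without any 1 of 3 and of 6 arrays, SWR replicate 1 and C57BL/6 replicate 4 in both cases, which left 1 gene higher. The gene that fell, Spcs2, a signal peptidase subunit (-0.31), lost its call under 13 alternatives, and with the probe sets of each gene averaged 5 genes rose and 4 fell. Of 18 heat shock chaperones, 0 rose and 1 fell (5.56%), Hspb8 by 0.60 at 1 of its 3 probe sets. Of 41 cytosolic ribosomal protein genes, 0 rose and 1 fell (2.44%), Rpl22 by 0.61, and 33 of the 41 differences were below 0 with a median of -0.10. Its call was lost without SWR replicate 2 or 4 or C57BL/6 replicate 1, 2 or 3.

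Of 15 metallothionein and zinc transport genes 0 were called, and 6 had an unadjusted p under 0.05 by limma. Of 18 O-glycan and terminal glycosylation enzymes, 0 rose and 2 fell (11.1%). B4galnt2, which adds a terminal sugar to glycans, was at 6.91, 6.71, 6.94 and 6.57 in SWR and at 7.89, 7.73, 8.01 and 7.84 in C57BL/6, 2.12-fold lower without overlap, while Galnt7 (-0.43) lost its call without any 1 of 6 arrays. Of 25 ion transport genes, 3 rose and 1 fell (16%). The proton pump gene Atp12a rose by 0.89, the water channel gene Aqp1 by 0.52 and the sodium pump subunit Atp1b1 by 0.49, while the sodium channel subunit Scnn1b fell by 0.56. The call of Aqp1 was lost without SWR replicate 4 or C57BL/6 replicate 1. Of 37 prostate tumour suppressors and oncogenes, 2 rose and 1 fell (8.11%), against 7.75% of all genes, and the calls of Myc (0.39) and Chd1 (0.51) were lost without any 1 of 2 and of 7 arrays, both without SWR replicate 4 or C57BL/6 replicate 2. A second probe set of Chd1 differed by -0.45 and was not called (limma adjusted p = 0.15). Of 24 immediate early genes, 3 rose, Dusp6 (0.60), Junb (0.46) and Myc, and 1 fell, Btg2 (16.7% called), and without SWR replicate 4 the count that rose was 1. Of 13 complement genes, 3 rose and 0 fell (23.1%). These were Cd59a, Clu and the protease gene C1ra (0.59), whose call was lost without SWR replicate 1 or 4 or C57BL/6 replicate 2, 3 or 4.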
